A study of Homo sapiens with 6 samples.

Results

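NLRP2 and 9 other genes of the inflammasome and of the interleukin-1 family were followed in MDA-MB231 cells carrying the long noncoding RNA gene GHSROS or an empty vector. The genes were NLRP1, NLRP2, NLRP3, PYCARD, CASP1, CASP4, IL1A, IL1B, IL18 and IL1RN. They were taken by symbol from the array annotation, with the brightest probe set kept for each gene. Of these 10 genes, 9 had a probe set of their own, out of 18377 genes measured in all, and each of the 9 had 1 such probe set. The probe set of NLRP1 is also annotated with a second gene, so no level was assigned to NLRP1. NLRP2 had been picked because its values stepped cleanly between the vectors, so its difference is given as a description without a test.

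MDA-MB231 is an established human breast cancer line of mesenchymal, triple-negative character. All cells carried the pTargeT mammalian expression plasmid, in 3 cultures without an insert and in 3 cultures with GHSROS, and all were grown in the same serum-containing medium. The submitters call the 3 cultures of each group biological replicates. Whether the transfection was transient or selected, and whether each culture was a pool or a clone, is not stated in the labels. Total RNA was read on 1-colour Affymetrix Human Gene arrays, 1 per culture, and all values below are the deposited log2 expression values. The number of arrays limits the precision.

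An inflammasome is a protein scaffold that forms in the cytosol when a sensor of the NLR family meets a danger signal. The sensor recruits the adaptor ASC, encoded by PYCARD, through pyrin domains, and ASC recruits caspase-1. Caspase-1 then cuts the precursors of interleukin-1 beta and interleukin-18 into their secreted forms and opens gasdermin pores in the membrane. Interleukin-1 alpha acts on the same receptor as interleukin-1 beta without needing that cut, and the antagonist encoded by IL1RN occupies that receptor without signalling. Breast carcinoma cells of mesenchymal type are known to make interleukin-1 themselves, whereas complete inflammasomes are best known from myeloid cells.

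The arrays carried the marks of the labelled line. The 6 genes fixed as high in such cells, among them VIM, CD44 and AXL, averaged between 11.99 and 12.23 per array, and 5 of the 6 genes fixed as low, all but ERBB2, lay below the median gene of 7.537. CDH1, the epithelial cadherin gene, read between 5.01 and 5.35, and ESR1, the oestrogen receptor gene, between 5.04 and 5.18. Empty-vector array 1 and GHSROS array 3 stood apart from the other arrays. On those 2 arrays the mean of 20 mitosis genes was 10.20 and 10.24, against 11.02 to 11.26 elsewhere, and the mean of 17 genes of the ATF4 stress response was 10.04 and 10.10, against 8.87 to 9.30 elsewhere. Each of the 9 genes is also given without these 2 arrays.

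NLRP2 was lower on every GHSROS array than on every empty-vector array. NLRP2 encodes a pyrin-domain NLR protein that can bind ASC and that is also known as a maternal-effect factor of the oocyte and early embryo. Its probe set 8031398 read 5.81, 5.69 and 5.59 on empty-vector arrays 1, 2 and 3, and 4.94, 5.01 and 4.78 on GHSROS arrays 1, 2 and 3. Each group spanned 0.23, and a gap of 0.57 separated the lowest empty-vector array from the highest GHSROS array. The group means were 5.70 ± 0.11 (SD, n = 3) for the empty vector against 4.91 ± 0.12 (SD, n = 3) for GHSROS, giving a log2 difference of -0.79 (SE 0.10). In RNA from whole cultures, fewer cells with a transcript and less transcript per cell cannot be told apart. NLRP2 lay below the median gene on these arrays, where normalized differences can be compressed. Whether its signal was above background with GHSROS cannot be told from these values, so no fold is given.

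The NLRP2 difference was larger between the arrays that stood apart, which held its highest and its lowest value. They are 1 array of each vector, so whether the step depends on what set them apart was not tested. GHSROS array 3 lay 1.03 below empty-vector array 1, and on the other 4 arrays the GHSROS mean lay 0.66 below the empty-vector mean. Leaving out 1 array at a time gave differences between -0.84 and -0.72. With both of those arrays left out (this omission was decided on after seeing the data), the difference was -0.66 (SE 0.11).

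RefSeq gives NLRP2 more than 1 start on the plus strand of chromosome 19, and the sequences before a pair of them are shown because they are almost the same. The stretches of 250 bases before the starts, at chr19:54965034-54965283 and chr19:54966124-54966373 of GRCh38.p14, begin 1090 bases apart and differ at 1 base, which is in capitals. Which start these cells used was not analysed here.
NLRP2, first start: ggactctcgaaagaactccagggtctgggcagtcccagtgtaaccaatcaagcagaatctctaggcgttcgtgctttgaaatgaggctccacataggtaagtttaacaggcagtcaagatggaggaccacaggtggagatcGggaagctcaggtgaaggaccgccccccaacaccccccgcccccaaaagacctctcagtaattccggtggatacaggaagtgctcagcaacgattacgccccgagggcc
NLRP2, second start: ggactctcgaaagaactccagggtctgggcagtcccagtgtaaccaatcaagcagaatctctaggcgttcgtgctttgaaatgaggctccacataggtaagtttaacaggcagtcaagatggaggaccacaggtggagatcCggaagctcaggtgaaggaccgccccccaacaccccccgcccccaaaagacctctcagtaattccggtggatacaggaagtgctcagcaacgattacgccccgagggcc
Each stretch held 2 matches on either strand to a loose form of the NF-kB site, GGG and CC with 5 free bases between them, which 54.4% of 35116 such stretches before RefSeq gene starts also hold. Neither held the AP-1 letters TGANTCA, found in 6.57% of all stretches, or the TATA letters TATAAA, found in 10.7%.

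The genes on either side of NLRP2 on chromosome 19 did not share its step. The 4 nearest measured genes on each side, in RefSeq order, had log2 differences between -0.21 and 0.19. NCR1, a natural killer cell receptor gene and the nearest one before NLRP2, had a log2 difference of -0.21 (SE 0.11), and its groups overlapped. GP6, the platelet collagen receptor gene and the nearest after it, averaged 7.02 ± 0.07 and 6.99 ± 0.07. FCAR, an immunoglobulin A receptor gene, was without overlap in the other direction, by a gap of 0.01, at 5.39 ± 0.06 and 5.50 ± 0.05. RDH13, a retinol dehydrogenase gene next to GP6, averaged 8.67 in both groups. NLRP7, a close relative of NLRP2 from the same cluster, had no probe set of its own.

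**Figure D1:**
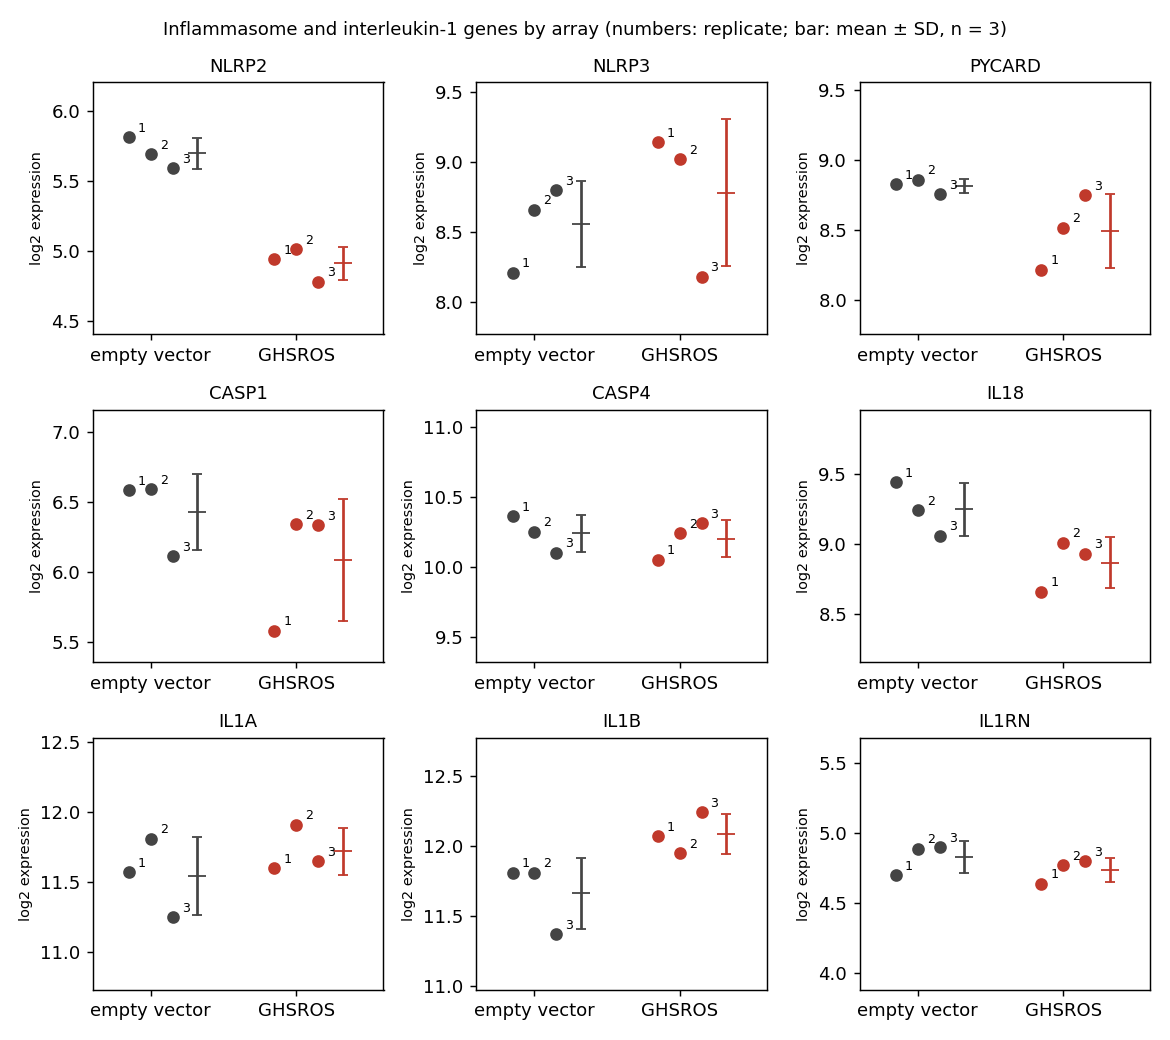
Log2 expression of the 9 measured genes on each array, with the empty vector in grey and GHSROS in red, the replicate number beside each point, and the mean ± SD of 3 arrays beside each group; each panel spans the same 1.8 log2 units. The NLRP2 groups are separated by 0.57, while the groups of NLRP3, CASP1, CASP4, IL1A and IL1RN overlap.

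NLRP3, the sensor of the best-studied inflammasome, was lowest on the arrays that stood apart, which are 1 of each vector. It read 8.21, 8.66 and 8.80 on the empty-vector arrays and 9.14, 9.02 and 8.18 on the GHSROS arrays. The lowest values belonged to GHSROS array 3 and empty-vector array 1, so the groups overlapped. The means were 8.56 ± 0.30 (SD, n = 3) and 8.78 ± 0.52, a log2 difference of 0.23 (SE 0.28, 95% interval -0.43 to 0.88). On the arrays that stood apart NLRP3 averaged 8.20, and on the other 4 it averaged 8.91. The mitosis genes were low on those same arrays, and their part in the NLRP3 values was not tested. The difference was 0.53 (SE 0.18) without GHSROS array 3, 0.05 when GHSROS array 1 was left out and 0.06 when empty-vector array 1 was. Without GHSROS array 2 it was 0.11, without empty-vector array 3 it was 0.35, and without both arrays that stood apart it was 0.36 (SE 0.12).

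PYCARD, whose product ASC links sensors to caspase-1, had its lowest value on GHSROS array 1. It read 8.83, 8.86 and 8.76 on the empty-vector arrays and 8.22, 8.52 and 8.75 on the GHSROS arrays. All 3 GHSROS values lay below the empty-vector values, but GHSROS array 3 did so by only 0.01. The means were 8.82 ± 0.05 (SD, n = 3) and 8.50 ± 0.26, a log2 difference of -0.32 (SE 0.14, 95% interval -0.65 to 0.01). Without GHSROS array 1 the difference was -0.18 (SE 0.12), and without both arrays that stood apart it was -0.44 (SE 0.14).

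CASP1, the protease that activates interleukin-1 beta and interleukin-18, spanned 0.48 within the empty-vector group and 0.77 within the GHSROS group, more than the difference between their means. It read 6.58, 6.59 and 6.11 on the empty-vector arrays and 5.58, 6.34 and 6.33 on the GHSROS arrays. GHSROS array 1 was the lowest, and the other GHSROS arrays lay inside the range of the empty-vector arrays. The log2 difference was -0.35 (SE 0.24, 95% interval -0.91 to 0.22), without GHSROS array 1 it was -0.09 (SE 0.17), and without both arrays that stood apart it was -0.39 (SE 0.26). CASP4, the caspase that senses bacterial lipopolysaccharide in the cytosol, was among the steadiest of these genes, at 10.36, 10.25 and 10.10 with the empty vector and 10.05, 10.24 and 10.31 with GHSROS. Its groups overlapped, with a log2 difference of -0.04 (SE 0.11, 95% interval -0.30 to 0.23) that turned to 0.03 without empty-vector array 1 and to 0.04 without GHSROS array 1. Without both arrays that stood apart it was -0.03 (SE 0.13).

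The cytokine genes did not all differ the same way. IL18, which encodes a caspase-1 substrate that promotes interferon gamma production, read 9.44, 9.24 and 9.06 with the empty vector and 8.66, 9.01 and 8.93 with GHSROS. Every GHSROS value was under every empty-vector value, by a gap of 0.05. The means were 9.25 ± 0.19 (SD, n = 3) and 8.87 ± 0.19, a log2 difference of -0.38 (SE 0.14, 95% interval -0.71 to -0.05), which ranged from -0.47 to -0.28 when single arrays were left out and was -0.32 (SE 0.15) without both arrays that stood apart. The intervals given for these genes are not adjusted for the number of genes, or for the genes having been chosen with earlier results of these data known.

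IL1B, the gene of interleukin-1 beta, lay on the other side. It read 11.81, 11.81 and 11.37 on the empty-vector arrays and 12.07, 11.95 and 12.24 on the GHSROS arrays. All GHSROS values lay above all empty-vector values, by a gap of 0.14, and empty-vector array 3 was the lowest of the 6. The means were 11.66 ± 0.25 (SD, n = 3) and 12.09 ± 0.15, a log2 difference of 0.42 (SE 0.15, 95% interval 0.07 to 0.77), or 1.34-fold higher. It was 0.28 (SE 0.12) without empty-vector array 3, between 0.35 and 0.50 without any other array, and 0.42 (SE 0.16) without both arrays that stood apart.

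IL1A, the neighbouring gene of interleukin-1 alpha, showed less separation. It read 11.57, 11.81 and 11.25 with the empty vector and 11.60, 11.91 and 11.65 with GHSROS. Array 3 was again the lowest of the empty-vector arrays, and the groups overlapped because empty-vector array 2 lay above GHSROS arrays 1 and 3. The log2 difference was 0.18 (SE 0.16, 95% interval -0.21 to 0.56), it was 0.03 without empty-vector array 3 and 0.08 without GHSROS array 2, and it was 0.31 without empty-vector array 2. Without both arrays that stood apart it was 0.22 (SE 0.20). IL1RN, the receptor antagonist gene, was dim and had overlapping groups. It read 4.70, 4.89 and 4.90 with the empty vector and 4.64, 4.77 and 4.80 with GHSROS, a log2 difference of -0.09 (SE 0.10, 95% interval -0.32 to 0.13). The difference ran from -0.16 without empty-vector array 1 to -0.04 without GHSROS array 1, and was -0.06 without empty-vector array 2 or 3 and -0.19 (SE 0.11) without both arrays that stood apart. The range of IL1RN over 6 arrays was 0.26, below the median of 0.37 over all genes.

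The stretches before the starts of IL1A and IL1B, which lie side by side on chromosome 2, are shown to set these cytokine genes next to each other. They cover chr2:112784401-112784650 for one of the IL1A starts and chr2:112836780-112837029 for IL1B in GRCh38.p14, both on the minus strand and 250 bases long, with matches to the AP-1 letters in capitals.
IL1A: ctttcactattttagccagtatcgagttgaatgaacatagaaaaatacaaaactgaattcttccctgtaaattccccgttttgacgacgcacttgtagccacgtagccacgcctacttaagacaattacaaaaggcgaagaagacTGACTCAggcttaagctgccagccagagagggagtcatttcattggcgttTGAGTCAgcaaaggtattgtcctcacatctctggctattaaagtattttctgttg
IL1B: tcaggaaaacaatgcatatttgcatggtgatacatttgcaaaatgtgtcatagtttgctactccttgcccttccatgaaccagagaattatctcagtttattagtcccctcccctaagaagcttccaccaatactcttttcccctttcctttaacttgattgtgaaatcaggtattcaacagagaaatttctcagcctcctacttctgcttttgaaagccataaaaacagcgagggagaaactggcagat
The IL1A stretch held 2 such matches, one ending 49 bases and the other 99 bases before the start, and the IL1B stretch held none. Neither stretch held the NF-kB or TATA letters given above, which says only that these letters are not in these windows. The stretch before another IL1A start, at chr2:112784494-112784743, is not shown. It held 1 match to the AP-1 letters, ending 6 bases before that start, and 1 to the TATA letters. Between IL1A and IL1RN on chromosome 2 lie 6 measured genes of the interleukin-36, interleukin-37 and interleukin-38 branch, with log2 differences between -0.16 and 0.14. The 4 nearest measured genes on each side of the region differed by -0.14 to 0.11.

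**Figure D2:**
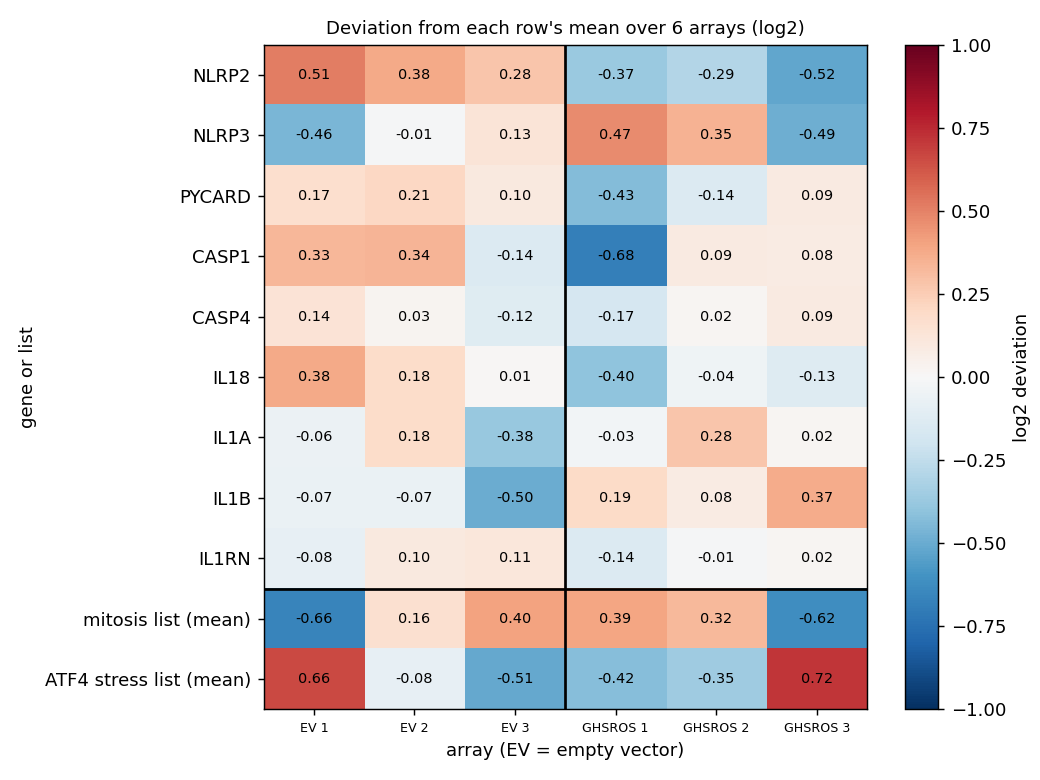
Deviation of each gene from its own mean over 6 arrays, in log2 units, with the means of the mitosis and ATF4 stress lists in the bottom rows; columns are arrays, red is above and blue below the row mean. NLRP2 divides at the line between the vectors, whereas NLRP3 is lowest on GHSROS array 3 (-0.49) and empty-vector array 1 (-0.46), at which the mitosis list is also lowest.

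GHSROS array 1 held the lowest value of 5 of the 9 genes, PYCARD, CASP1, CASP4, IL18 and IL1RN, and the highest value of NLRP3. IL1A and IL1B were lowest on empty-vector array 3, and NLRP2 and NLRP3 on GHSROS array 3. By the root mean square difference of their values, each centred on its own mean over 6 arrays, PYCARD and IL18 were the most alike pair of the 9 genes (0.137), followed by CASP4 and IL1RN (0.139), which both varied little. NLRP3 and CASP1 were the least alike (0.650), and NLRP2 was nearest to IL18 (0.242).

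Across the genes as a set, 3 of 9 were higher and 6 lower with GHSROS, with a median log2 difference of -0.09 beside 0.002 for all 18377 genes. The groups did not overlap for 4 of the 9, with NLRP2, PYCARD and IL18 lower and IL1B higher. Over all genes 5.51% had groups that did not overlap, 2.44% with GHSROS below and 3.06% with GHSROS above. NLRP2 was chosen on this contrast and the other genes with earlier results of these data known, so nothing is read from the count. In limma fitted across all genes, 0 of 18377 genes (0.0%) passed an adjusted p of 0.05, and the adjusted p of the 8 genes other than NLRP2 was 1. At an unadjusted p under 0.05 limma gave 325 genes, 1.77% of all.

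**Figure D3:**
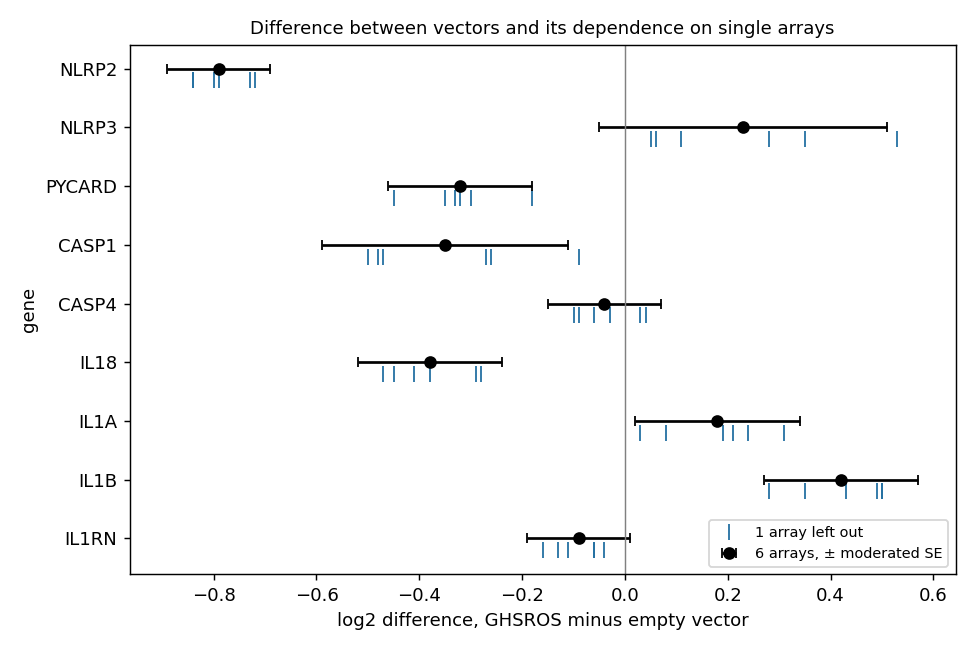
Log2 difference between the vectors for each gene, with its moderated SE over 6 arrays in black, and the values with 1 array left out as blue ticks. NLRP2 stays between -0.84 and -0.72, CASP1 between -0.50 and -0.09, NLRP3 between 0.05 and 0.53, and CASP4 lies on both sides of 0.

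Other genes of the pathway were read from 7 lists that hold 95 genes, of which 90 were measured. NLRP7, GSDMA, IRAK4, TAB1 and CSF2 had no probe set of their own. Of the 90 genes 47 were higher and 43 lower, 0 passed the limma test at an adjusted p of 0.05, and the groups did not overlap for 5, or 5.56%, beside 5.51% of all genes. The other inflammasome sensors were split 10 to 10 among 20 measured, with a median log2 difference of 0.00. Of these 20 genes 18 lay below the median gene, where differences can be compressed. AIM2, the sensor of cytosolic DNA, averaged 6.64 ± 0.22 (SD, n = 3) in the empty-vector group against 6.34 ± 0.11 in the GHSROS group, with overlap. NLRP11 went the other way, at 4.17 ± 0.07 and 4.38 ± 0.19. Its groups were apart by only 0.01, and it was dim on every array.

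Among 14 regulators of the inflammasome, 5 were higher and 9 lower (median -0.04). CARD8, itself able to form a caspase-1 activating complex, had a log2 difference of -0.21 (SE 0.12), and DPP9, the peptidase that restrains NLRP1 and CARD8, of -0.14 (SE 0.16). Both overlapped between groups. PYDC1, a pyrin-only protein gene that can block ASC, was the regulator without overlap, by a gap of only 0.01. It averaged 5.14 ± 0.02 (SD, n = 3) and 5.02 ± 0.11. Of 9 caspases and pore proteins 3 were higher and 6 lower (median -0.04). The largest differences there were -0.15 for GSDMB, a gasdermin gene, and -0.15 for CASP8, the initiator caspase of death receptors, again with overlap.

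The other ligands and the receiving side of the interleukin-1 system showed small differences too. Of the other 7 ligands of the family 5 were higher and 2 lower (median 0.05), all of them below the median gene, with IL36B at -0.16 (SE 0.12) and IL36A at 0.14 (SE 0.10). Of 9 receptors and decoys 5 were higher and 4 lower (median 0.00), and 8 of the 9 lay below the median gene. SIGIRR, a receptor that dampens interleukin-1 signalling, averaged 7.65 ± 0.16 (SD, n = 3) and 7.34 ± 0.17, and IL1RAP, the chain that the interleukin-1 receptor needs for signalling, averaged 7.59 ± 0.06 and 7.71 ± 0.08. Both overlapped between the groups. IL1RL2, the interleukin-36 receptor gene, was dim and was the 1 of these 9 without overlap, beside 5.51% of all genes. It averaged 4.66 ± 0.06 (SD, n = 3) and 4.78 ± 0.05, and empty-vector array 2 at 4.73 lay just below GHSROS array 2 at 4.74. In the MyD88, IRAK and NF-kB relay 7 of 16 genes were higher and 9 lower (median 0.00), with TNFAIP3, a feedback inhibitor, at 0.21 (SE 0.11) and the ubiquitin ligase gene TRAF6 at -0.14 (SE 0.11).

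Genes that interleukin-1 is known to induce were higher in 12 of 15 members and lower in 3, beside 50.9% of all genes higher. Their median log2 difference was 0.07, and 0 passed the limma test. The list was chosen with earlier results of these data known, so nothing is read from its counts. PTGS2, the inducible cyclooxygenase gene, read 8.42, 8.21 and 7.82 with the empty vector and 9.21, 8.49 and 9.24 with GHSROS, a log2 difference of 0.84 (SE 0.24). CSF3, the gene of granulocyte colony-stimulating factor, read 9.81, 10.03 and 9.91 and then 10.70, 10.42 and 10.24, a log2 difference of 0.54 (SE 0.13). In both genes every GHSROS array lay above every empty-vector array, and they were the only genes of this list without overlap, 2 of 15 beside 3.06% of all genes with GHSROS above and 5.51% in either direction. The mean of all 15 genes was 8.63 to 8.84 on the empty-vector arrays and 8.94 to 9.05 on the GHSROS arrays. Without PTGS2 and CSF3 the mean of the other 13 genes was 8.60 to 8.79 with the empty vector and 8.78 to 8.94 with GHSROS. Those means overlapped only because empty-vector array 1 (8.79) lay just above GHSROS array 1 (8.78). Of these 13 genes IL11 (0.49), IL6 (0.46) and CCL20 (0.44) had the largest log2 differences, each with overlapping groups. The list means were not tested.

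**Figure D4:**
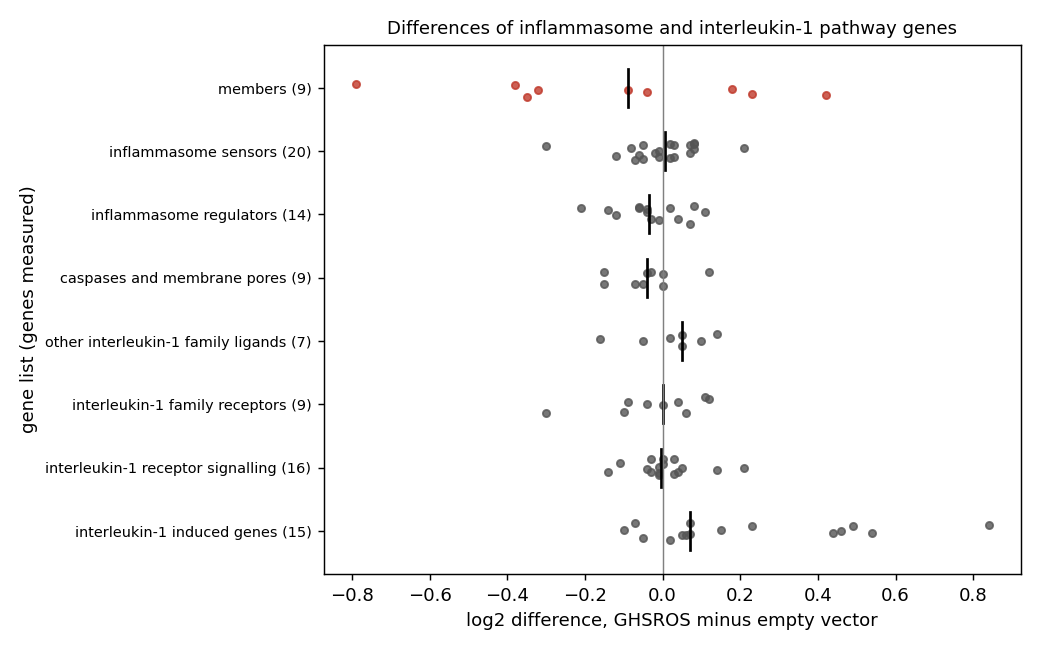
Log2 differences between the vectors for the 9 measured genes (red) and for each gene of the 7 pathway lists (grey), with the median of each list as a black bar. NLRP2 is at -0.79, and because it was picked for its step between these vectors, its place beside the grey points is not a result. PTGS2 at 0.84 is the farthest on the high side.

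Markers of myeloid cells, in which these genes are best known, had list means that overlapped between the vectors. All 12 were measured, 5 higher and 7 lower with GHSROS, and their mean was 6.38 to 6.70 on the empty-vector arrays and 6.37 to 6.66 on the GHSROS arrays. PTPRC, the pan-leukocyte marker, read 3.55 to 3.68, below the median gene, as did 9 of the 12. LYZ, the lysozyme gene, was dim and was the 1 of these 12 markers without overlap, beside 5.51% of all genes. It read 4.28, 4.18 and 4.18 with the empty vector and 4.14, 3.76 and 4.13 with GHSROS, a gap of 0.04. CD68 (12.06 to 12.66) and LAPTM5 (10.44 to 11.74) were bright. CD14 was highest on empty-vector array 1 (8.98) and GHSROS array 3 (8.09) and between 6.56 and 6.96 elsewhere. The 6 measured lymphoid markers lay below the median gene, with list means of 5.23 to 5.40 on the empty-vector arrays and 5.33 to 5.39 on the GHSROS arrays. The groups did not overlap for 3 of these 6, beside 5.51% of all genes, but the gaps were small and nothing is read from the count. The log2 difference was 0.33 for the T cell receptor chain gene CD3D, with a gap of 0.06. It was -0.13 for CD2 (gap 0.03) and -0.14 for the B cell receptor gene CD79A (gap 0.01). The part of these markers in the values of the other genes was not tested.

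The genes whose pattern came nearest to NLRP2 were sought among 9189 genes that were not below the median gene, by the same root mean square difference over 6 arrays. They were PTPN22 (0.153), ZNF841 (0.204), ZNF738 (0.210), MEST (0.214) and PTX3 (0.215). PTPN22, a tyrosine phosphatase gene known from lymphocytes, read 9.23, 9.15 and 9.01 with the empty vector and 8.48, 8.43 and 8.63 with GHSROS. PTX3, which encodes a secreted pattern recognition protein, read 9.91, 10.07 and 10.16 and then 9.52, 9.79 and 9.39. All 5 have groups that do not overlap, which likeness to NLRP2 favours. Nearest to IL1B were KLF7 (0.103) and TRPS1 (0.105), both transcription factor genes, GRAMD1C (0.106), the adhesion receptor gene ADGRL2 (0.112) and PDK3 (0.112), a kinase gene of pyruvate dehydrogenase. KLF7, at 9.69, 9.51 and 9.15 and then 9.60, 9.70 and 9.99, shared with IL1B its lowest value on empty-vector array 3 and its highest on GHSROS array 3.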

How the data were processed

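RNA of 6 cultures was read on Affymetrix Human Gene arrays, and the authors deposited log2 values per probe set, for which the submitters' processing notes name RMA. Its version, background step and filter are not stated there. Array medians ran from 6.559 to 6.648 and 0 columns were left out. Of 28869 probe sets, 19310 were paired with 1 symbol, 1752 with several, which were not named, and 7807 with none. Entrez identifiers of 19279 matched the RefSeq table of GRCh38.p14, which changed 0 symbols. The brightest probe set per gene was kept, leaving 18377 genes with no filter. Groups and replicate numbers came from the sample titles. Limma 3.58.1 in R 4.3.3 was used (lmFit, then eBayes, two-sided, with no covariate beside the vector, Benjamini-Hochberg over all genes, threshold 0.05). The same fit was also run on the deposited values and on simulated noise, each with known shifts added to some genes. Were the cultures not separate, the p-values would reflect only technical spread.

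The genes described and all lists were chosen with earlier results of these data known. Named beyond them were the 2 genes of each pathway list with the largest difference, the 5 genes most like NLRP2 and IL1B, and the nearest genes on each side, plus markers and the list genes without overlap. Promoter stretches before RefSeq starts were available here for 7 of the 10 genes. Same-numbered arrays of both groups deviated together only for number 2 (r = -0.71, 0.50 and -0.67 across genes). The numbers were therefore not taken as pairs. The highest r was 0.83, between empty-vector array 1 and GHSROS array 3, followed by 0.74 between empty-vector array 3 and GHSROS array 1. The alternatives were a replicate block, quantile normalization, median centring, a filter at the median level, other uses of probe sets, array weights, a robust prior with an intensity trend, and leaving out arrays.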

Additional observations from a re-analysis of the deposited data

How the results depend on the processing

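Under each of the 15 alternatives run, limma called 0 genes over all and 0 pathway genes at an adjusted p of 0.05, with a smallest adjusted p of 0.0983, under array weights. At an unadjusted p under 0.05 the count was 325 with all arrays, 877 with array weights, 223 with the replicate block, 76 of 9189 genes with the filter at the median level, and between 191 and 480 with 1 array left out. With the replicate number as a block the NLRP2 difference was -0.79 (SE 0.09) and 3 of 9 genes were higher, as without it, and the titles do not say what a number shares. CASP4, between -0.10 and 0.04 with 1 array left out, reversed to 0.03 without empty-vector array 1 and to 0.04 without GHSROS array 1. The other 8 genes kept their direction in every alternative that measured them, NLRP2 between -0.84 and -0.66 and IL18 between -0.47 and -0.28. The groups of NLRP2, PYCARD, IL18 and IL1B did not overlap, so leaving out arrays could not have reversed these genes. Nothing is read from their kept direction there. The filter removed NLRP2, CASP1 and IL1RN, whose signals lay below the median gene, so they have no value there. The number of arrays and the dim signals of NLRP2 and IL1RN limit what can be seen.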
